A study of Mus musculus with 4 samples.

Results

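CD8 Temra cells, a cluster of CD8+ T cells named by the authors, were examined in orthotopic CT26 tumors. Their members were all cells that carry this cluster name in the deposited cell table, 2480 of 17674 cells (14.0%), of which 1327 came from Cyp51-KO tumors and 1153 from sg-Ctrl tumors. CT26 is a mouse colorectal cancer line. Cyp51-KO tumors grew from CT26 cells in which *Cyp51*, an enzyme of cholesterol synthesis, had been knocked out with a guide RNA on a lentiviral vector that also carries the blue fluorescent protein BFP, as a pool of sorted BFP+ cells. The sg-Ctrl tumors grew from CT26 cells with a control guide. Both were grown in male BALB/c mice of 8 to 10 weeks at injection and were taken at day 26, with 9 Cyp51-KO tumors and 12 sg-Ctrl tumors. Only the tumor line carried the knockout, so the Temra cells themselves were host cells of the same genotype in both groups.

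CD8+ T cells kill infected or transformed cells that present foreign peptides on MHC class I molecules. The name Temra comes from human immunology, where it stands for effector memory T cells that regain the RA isoform of CD45 and are rich in cytotoxic granules. In this study the name was given to recently activated effector memory or effector cells. The leading genes that the authors gave for the cluster include *Ly6c2*, which codes for Ly-6C, a surface protein of activated and memory CD8+ T cells in mice, *Cd8b1*, the beta chain of the CD8 coreceptor, and *Ccl5*, a chemokine stored and released by memory and effector CD8+ T cells. That list was made from the same cells and was therefore no independent check of the name. The table analysed here gives no expression of single genes, so neither *Cd8a* nor *Ly6c2* nor the markers of other cell types could be looked up in the members, and the cells are called Temra by their label alone.

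The other CD8 clusters served as the cells of comparison. They were effector cells (Teff), which carry granzymes and perforin, exhausted cells (Tex), which carry inhibitory receptors after lasting contact with antigen, and a small cluster named for heat-shock proteins (HSP+). The 4 CD8 clusters together held 5432 cells, 2770 from Cyp51-KO tumors and 2662 from sg-Ctrl tumors. For each cell the table gives the number of unique molecular identifiers (UMIs), which count captured mRNA molecules, the number of genes with a UMI, and the percentage of UMIs from mitochondrial genes. The sample titles were read as 2 libraries per group, since no other sample label states the group. The table gives the group of each cell but does not tell which library it came from. Each group therefore counts as 1 sample, no test between the groups was possible and no p-value is given. All intervals are 95% intervals over cells. They cover counting error only and leave out differences between mice, sorts and libraries.

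All cells of the table had 500 to 99951 UMIs and 226 to 6998 genes, with at most 4.98% mitochondrial UMIs. The median over all cells was 6508.5 UMIs in the Cyp51-KO group and 7822.5 UMIs in the sg-Ctrl group. These medians cover unlike mixes of cells and do not compare depth at equal composition. Malignant cells, the cluster with the most UMIs (medians 39624 and 45683), were 2428 of 10484 Cyp51-KO cells and 729 of 7190 sg-Ctrl cells. Cell barcodes shared by the groups numbered 98, of which 11 were carried by Temra cells of Cyp51-KO tumors, 16 by Temra cells of sg-Ctrl tumors, and 3 by a Temra cell in both. Within each group no barcode was repeated, and all barcodes carried the same suffix. Whether the cells of a group come from both of its libraries was not tested.

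Temra cells made up the largest of the CD8 clusters in Cyp51-KO tumors and were second to Tex cells in sg-Ctrl tumors. They were 47.9% of CD8 cells in the Cyp51-KO group (1327 of 2770 cells, exact Clopper-Pearson interval 46.0 to 49.8%), against 43.3% in the sg-Ctrl group (1153 of 2662 cells, 41.4 to 45.2%). The intervals lay apart, and the log2 ratio of shares, Cyp51-KO over sg-Ctrl, was 0.15, with 0.03 to 0.27 when opposite ends of the intervals were divided. Without the HSP+ cluster the shares were 48.7% and 44.1%, again with separate intervals (log2 ratio 0.14). With both groups weighted to equal UMIs per cell, as described after the depth of the cells, the direction was the opposite (log2 ratio -0.45).

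The neighboring clusters differed more, and in opposite directions. Teff cells were 15.0% of CD8 cells in Cyp51-KO tumors and 8.0% in sg-Ctrl tumors (log2 ratio 0.91), and Tex cells were 35.5% and 46.9% (log2 ratio -0.40), in both cases with separate intervals. The direction for Temra cells therefore depended on the neighbor they were set against. There were 3.19 Temra cells per Teff cell in the Cyp51-KO group (2.86 to 3.57), against 5.41 in the sg-Ctrl group (4.67 to 6.29), a log2 ratio of -0.76. Per Tex cell there were 1.35 Temra cells in the Cyp51-KO group (1.24 to 1.47), against 0.924 in the sg-Ctrl group (0.852 to 1.002), a log2 ratio of 0.55. Temra cells were thus fewer beside effector cells and more numerous beside exhausted cells, with both pairs of intervals apart. Per HSP+ cell the counts were 29.5 and 24.0, and with 45 and 48 HSP+ cells the range of the log2 ratio ran from -0.58 to 1.17. Per proliferating T cell, a cluster that was not split into CD4+ and CD8+ cells, the counts were 2.49 in the Cyp51-KO group and 2.97 in the sg-Ctrl group, and the intervals overlapped (log2 ratio -0.25).

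**Figure D1:**
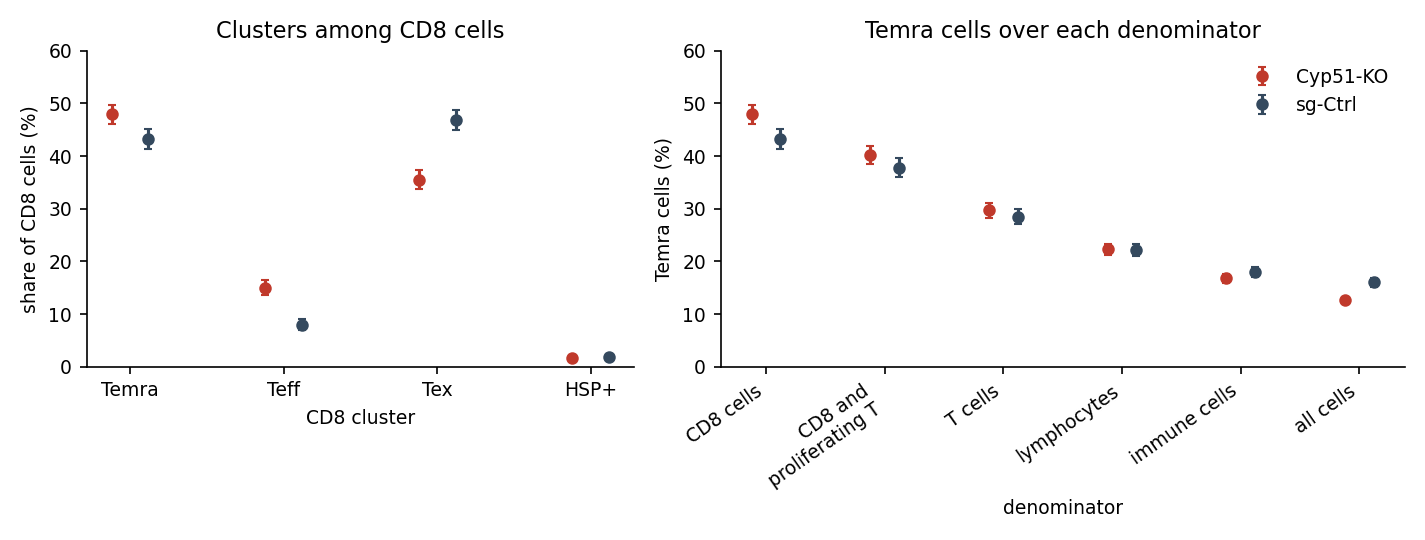
Share of the CD8 clusters among CD8 cells (%, left) and Temra cells as a percentage of wider and wider sets of cells (right) for the Cyp51-KO and the sg-Ctrl group. Bars are exact 95% binomial intervals. Temra cells are 47.9% against 43.3% of CD8 cells, meet among lymphocytes at 22.3% and 22.2%, and are 12.7% against 16.0% of all cells.

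Over wider sets of cells the intervals of the Temra share overlapped or its direction turned. With proliferating T cells added to the CD8 cells it was 40.2% (38.5 to 41.9%) in the Cyp51-KO group and 37.8% (36.1 to 39.6%) in the sg-Ctrl group. Among the 8 T cell clusters it was 29.7% (28.3 to 31.0%) and 28.5% (27.1 to 29.9%), and the intervals overlapped in both cases. Over immune cells the direction turned, with 16.8% in the Cyp51-KO group and 18.0% in the sg-Ctrl group, and the intervals overlapped. Over all cells the Temra share was 12.7% (12.0 to 13.3%) in the Cyp51-KO group and 16.0% (15.2 to 16.9%) in the sg-Ctrl group, with separate intervals. Each step outward diluted the CD8 cells differently in the groups. CD8 clusters were 61.9% of T cells in Cyp51-KO tumors and 65.8% in sg-Ctrl tumors, and lymphocytes were 56.8% and 72.2% of all cells. Bulk CD45+ cells, CD3+ T cells and tumor cells were sorted apart and then mixed in parts of 50%, 40% and 10%. Shares of wide sets therefore depend on sorting and mixing and do not describe the tumor. The mix recovered was also not the same in both groups. Malignant cells were 2428 of 10484 cells in the Cyp51-KO group and 729 of 7190 cells in the sg-Ctrl group.

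Temra cells of Cyp51-KO tumors had fewer captured mRNA molecules than those of sg-Ctrl tumors, by 2.03-fold at the median. The lowest, median and highest cell had 508, 3005 and 16174 UMIs in the Cyp51-KO group, against 552, 6112 and 22172 UMIs in the sg-Ctrl group. The distributions overlapped at their ends, but their middle parts did not. The quartiles ran from 2132 to 4159 UMIs in Cyp51-KO tumors and from 4547 to 7938 UMIs in sg-Ctrl tumors. The log2 ratio of the medians was -1.02 (-1.12 to -0.95), and if a cell was drawn from each group the Cyp51-KO cell had fewer UMIs in 83.3% of all pairs.

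Counted by cell, 1058 Temra cells of Cyp51-KO tumors (79.7%) lay under 4547 UMIs, the lower quartile of sg-Ctrl tumors. Only 129 of them (9.72%) exceeded the sg-Ctrl median of 6112 UMIs. Conversely, 89 Temra cells of sg-Ctrl tumors (7.72%) fell short of the Cyp51-KO median. Both ends of the distribution were lower in Cyp51-KO tumors, with 1521 against 3231 UMIs at percentile 10 and 6002 against 10376 UMIs at percentile 90. Cells with very few UMIs were also more common. Under 1000 UMIs were 45 Temra cells of Cyp51-KO tumors (3.39%, 2.48 to 4.51%), against 6 of sg-Ctrl tumors (0.520%, 0.191 to 1.13%). Under 2000 UMIs were 282 cells (21.3%, 19.1 to 23.6%) against 28 cells (2.43%, 1.62 to 3.49%). For Tex cells the percentages under 2000 UMIs were 4.89% and 1.20%, and for Teff cells 2.16% and 0.939%. For HSP+ cells they were 17.8% (8 of 45 cells, 8.0 to 32.1%) and 0% (0 of 48 cells). The exact interval of the latter reaches up to 7.40%, and a limit of 3 counts gives 6.25%.

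**Figure D2:**
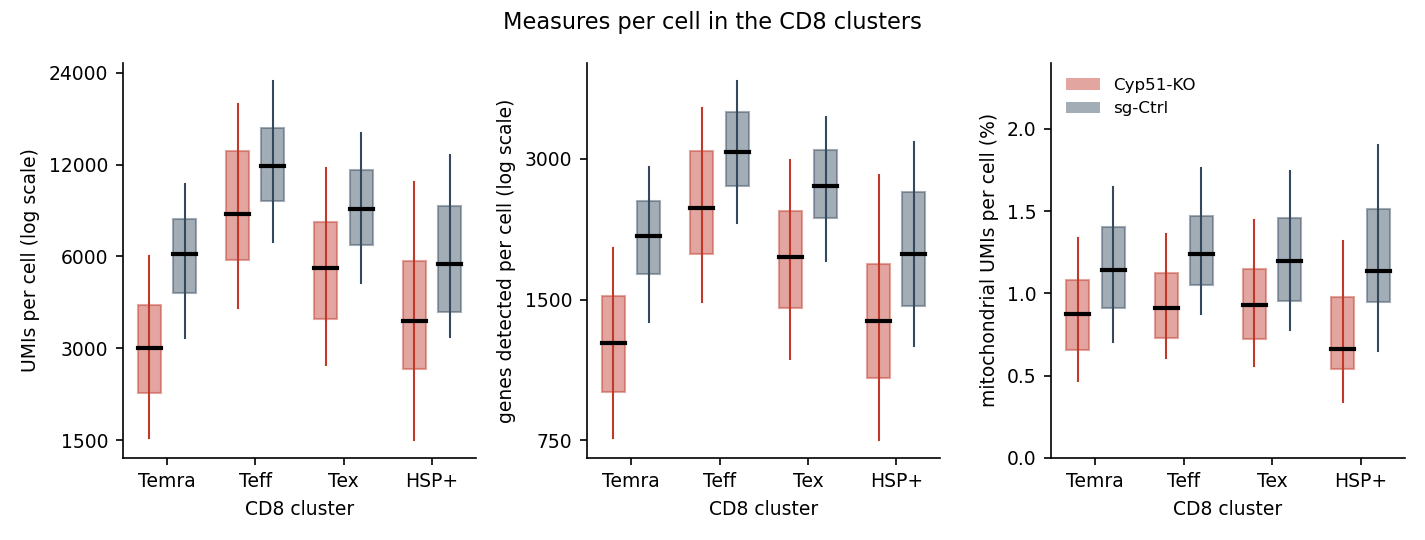
UMIs per cell (log scale), genes detected per cell (log scale) and mitochondrial UMIs (%) in the CD8 clusters, with Cyp51-KO to the left of sg-Ctrl in each pair. Boxes span the quartiles over cells, black lines are medians and thin lines run to percentiles 10 and 90. In Temra cells the UMI boxes of the groups do not meet, with medians of 3005 and 6112.

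UMIs per cell were lower in Cyp51-KO tumors in each of the 13 lymphocyte clusters, and the log2 ratio of Temra cells was among the lowest of the 20 clusters, above only that of Th1-like cells (-1.18) and that of Th17 cells (-1.11). Its place in this order was not resolved, since its range overlapped those of both and, on the other side, those of B cells (-0.93, -1.28 to -0.74), the first functional NK cluster (-0.88, -1.10 to -0.66) and Treg cells (-0.88, -1.19 to -0.59) among others. The median log2 ratio over lymphocyte clusters was -0.85. Over all 20 clusters UMIs per cell were lower in Cyp51-KO tumors in 18. The exceptions were neutrophils (0.05, -0.47 to 0.43) and intestinal cells (0.19, -1.09 to 0.92). Malignant cells had -0.21 (-0.32 to -0.07). Within the CD8 clusters the ratio was further from 0 in Temra cells than in Teff cells (8245 against 11833 UMIs, log2 ratio -0.52, -0.71 to -0.30) and Tex cells (5496 against 8568.5 UMIs, -0.64, -0.75 to -0.53), and these ranges did not meet that of Temra cells. For HSP+ cells the range was too wide to tell (3680 against 5679.5 UMIs, -0.63, -1.38 to 0.05). With 1 value of depth per cell, less mRNA in the cell, less efficient capture and shallower sequencing of the libraries cannot be told apart.

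**Figure D3:**
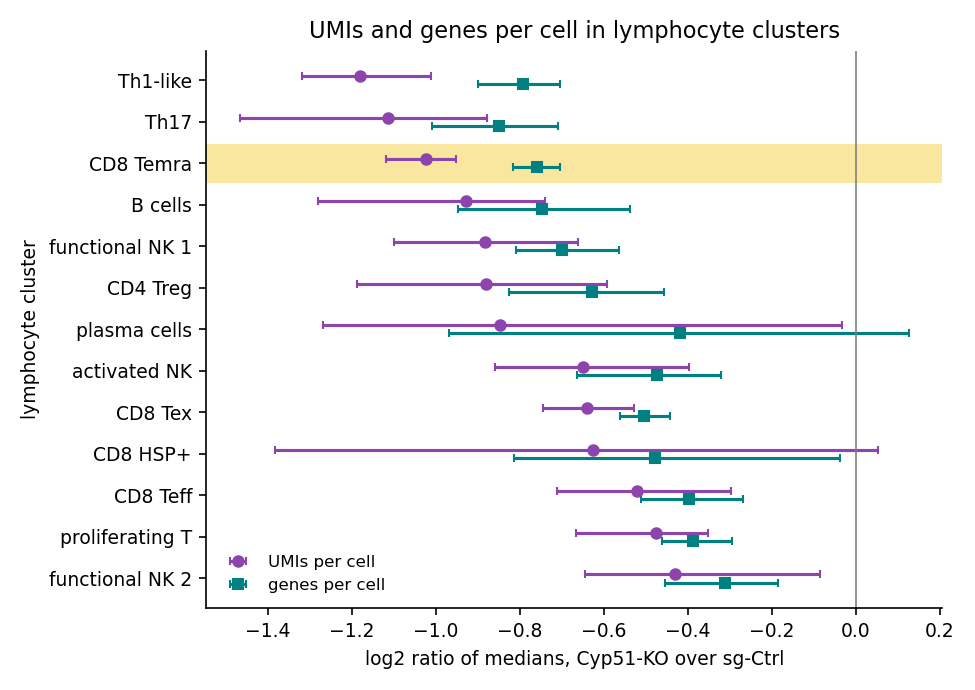
Log2 ratio of the median UMIs per cell and of the median genes per cell, Cyp51-KO over sg-Ctrl, in the 13 lymphocyte clusters, with ranges from exact 95% intervals of the medians as bars and the Temra row shaded. All points lie below 0, though the bars of HSP+ cells (UMIs) and plasma cells (genes) reach past it, with -1.02 for UMIs and -0.76 for genes in Temra cells.

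Because the shift was larger in Temra cells than in Teff and Tex cells, the order within the CD8 compartment was steeper in Cyp51-KO tumors. There the Temra median of UMIs lay below that of Teff cells by a log2 ratio of -1.46 and below that of Tex cells by -0.87. The corresponding log2 ratios in sg-Ctrl tumors were -0.95 and -0.49. Temra cells were thus the CD8 cluster with the fewest UMIs in Cyp51-KO tumors, whereas in sg-Ctrl tumors the HSP+ cluster had a lower median (log2 ratio of Temra over HSP+ -0.29 in the Cyp51-KO group and 0.11 in the sg-Ctrl group). The intervals of the Temra and HSP+ medians overlapped in both groups. Temra cells supplied a smaller part of the CD8 UMIs than of the CD8 cells. They gave 29.8% of all UMIs of CD8 cells in the Cyp51-KO group, against 33.2% in the sg-Ctrl group, while their shares of the cells were 47.9% and 43.3%.

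Fewer genes were detected per Temra cell as well. Quartiles were 952 and 1528 genes around a median of 1210 in the Cyp51-KO group, against 1699 and 2440 around a median of 2047 in the sg-Ctrl group. The log2 ratio was -0.76 (-0.82 to -0.70), a 1.69-fold difference, and 84.0% of the Cyp51-KO cells lay below the lower quartile of sg-Ctrl tumors. In Teff, Tex and HSP+ cells the log2 ratios were -0.40, -0.50 and -0.48. Genes followed UMIs closely in both groups. Spearman's rho over Temra cells was 0.97 in the Cyp51-KO group and 0.96 in the sg-Ctrl group. It describes cells that share the depth of their libraries, which the table does not tell apart. With each doubling of UMIs the number of genes grew 1.60-fold and 1.57-fold.

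The percentage of mitochondrial UMIs was lower in Temra cells of Cyp51-KO tumors. The median was 0.872% (quartiles 0.654 and 1.08%) in the Cyp51-KO group, against 1.14% (0.908 and 1.40%) in the sg-Ctrl group, a log2 ratio of -0.39 (-0.47 to -0.31). The quartile ranges overlapped, and 21.6% of Cyp51-KO cells exceeded the sg-Ctrl median. Teff cells (log2 ratio -0.44) and Tex cells (-0.37) differed by similar amounts, with ranges that overlap that of Temra cells. The HSP+ cluster had the log2 ratio furthest from 0 of the CD8 clusters (0.661% against 1.14%, -0.78, -1.17 to -0.30), and its wide range contained that of Temra cells. The percentage hardly followed UMIs, with Spearman's rho of 0.11 in the Cyp51-KO group and -0.0019 in the sg-Ctrl group. The authors had removed cells with a high percentage from both groups before deposit (at most 4.98% remained), so such cells could not appear here.

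The authors' depth-corrected values were also compared. SCTransform models each gene against the UMIs of a cell and recomputes counts at a common depth, so summed UMIs come close to each other by construction. It gave a median sum of 6467 corrected UMIs per Temra cell in the Cyp51-KO group and 6726 in the sg-Ctrl group (log2 ratio -0.06). After the same correction the median number of genes above 0 was 1298 and 2047, a log2 ratio of -0.66, the lowest of the 20 clusters. Th17 cells were level with it at -0.66. Before correction the medians were 1210 and 2047 genes. In Temra cells of the groups paired within 1% of their UMIs, as described below, the corrected gene numbers were 1600.5 and 1699.5 (log2 ratio -0.09). The log2 ratio of -0.66 is therefore not a difference between cells of equal UMIs.

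To set Temra cells of equal depth side by side, they were placed in 10 bins of UMIs with edges taken from both groups together. The Cyp51-KO cells had fewer genes in 9 of 10 bins, in 6 of them with separate intervals, and the mean log2 ratio was -0.10. Single bins ran from -0.18 to 0.07. The lower ends of their ranges averaged -0.19 and the upper ends 0.0075, which is no interval for the mean log2 ratio. In the fifth bin, from 3542 to 4268 UMIs, the median was 1404 genes in 161 Cyp51-KO cells and 1565 genes in 87 sg-Ctrl cells. The exception was the lowest bin, up to 1824 UMIs, with 717 genes in 225 Cyp51-KO cells and 684 genes in 23 sg-Ctrl cells. UMIs were not fully level within bins. The median was lower in Cyp51-KO cells in 7 of 10 bins, among them the fifth (3789 against 3944 UMIs), and higher in the lowest bin (1455 against 1264 UMIs). The gap in genes was thus much smaller within bins of UMIs than over all Temra cells (log2 ratio -0.76).

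Pairing each cell with one of the other group within 1% of its UMIs gave 540 pairs, with median UMIs of 4491 in Cyp51-KO and 4476 in sg-Ctrl cells. The first of these medians exceeds the upper quartile of all Cyp51-KO Temra cells (4159 UMIs). The second falls short of the lower quartile of all sg-Ctrl Temra cells (4547 UMIs). Pairing thus sets mostly deep cells of one group against mostly shallow cells of the other. Genes and mitochondrial percentages of the pairs therefore do not describe the typical Temra cell of either group. The paired cells had 1596 and 1697 genes at the median (log2 ratio -0.09), and the Cyp51-KO cell had fewer genes in 382 pairs (70.7%). The mitochondrial gap, by contrast, kept its size at equal UMIs. It was 0.899% against 1.15% over the pairs (log2 ratio -0.36), and the Cyp51-KO median was lower in 10 of 10 bins, in 6 of them with separate intervals. The mean log2 ratio was -0.36. Single bins ran from -0.50 to -0.22. The lower ends of their ranges averaged -0.68 and the upper ends -0.04, again no interval for the mean. Pairs share their libraries, so these counts describe the pooled cells and are no test.

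**Figure D4:**
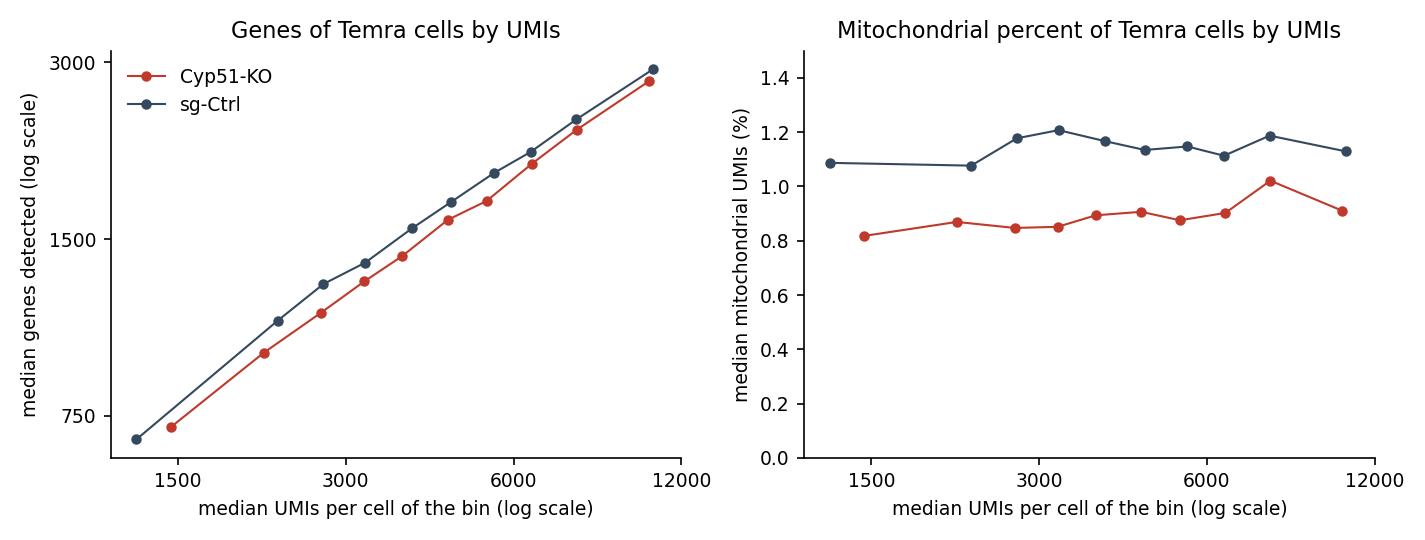
Median genes detected (log scale, left) and median mitochondrial UMIs (%, right) of Temra cells in 10 bins of UMIs, against the median UMIs of the bin (log scale), for the Cyp51-KO and the sg-Ctrl group. The Cyp51-KO line lies lower for the mitochondrial percentage in all 10 bins and, bin by bin, for genes in 9.

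Differences of this kind at equal UMIs were found in other lymphocytes too. In the 10 lymphocyte clusters with at least 50 such pairs, the Cyp51-KO cells had fewer genes (log2 ratios -0.18 to -0.09) and a lower mitochondrial percentage (-0.48 to -0.18) in every cluster. Over all 15 clusters with as many pairs both values were lower in 14, the exception being neutrophils (0.43 for genes and 1.23 for the mitochondrial percentage over 261 pairs). The Temra values lay within both lymphocyte spans, for genes near the weaker end. Teff cells had -0.09 for genes and -0.48 for the mitochondrial percentage over 168 pairs. Tex cells had -0.11 and -0.39 over 658 pairs.

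How cells were divided among the CD8 clusters was tied to their UMIs in both groups. The CD8 cells of each group were ordered by their own UMIs and cut into 10 steps of equal size. In the lowest step the Temra share was 82.7% in the Cyp51-KO group, against 72.3% in the sg-Ctrl group. In the highest it was 6.14% against 8.24%. The Cyp51-KO share was the higher one in the lower 5 steps, in 3 of them with separate intervals, and the lower one in the other 5, with overlapping intervals. The surplus of Temra cells in Cyp51-KO tumors thus spread over the lower 5 steps. It was 75.1% against 56.8% in the third step. In the fifth it was 56.2% against 44.7%, with overlapping intervals.

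At the same absolute number of UMIs the picture differed. In bins common to both groups the Cyp51-KO share was higher only in the lowest, from 504 to 2290 UMIs, with 82.4% of 482 CD8 cells against 64.5% of 62 CD8 cells. In the other 9 it was lower, in 6 of them with separate intervals. Between 4068 and 4991 UMIs Temra cells were 43.8% of CD8 cells in the Cyp51-KO group, against 69.8% in the sg-Ctrl group. Between 5983 and 6947 UMIs they were 22.2% against 55.0%. In that range, 59.1% of Cyp51-KO cells and 40.0% of sg-Ctrl cells were Tex cells, and 17.7% and 3.82% were Teff cells. With both groups weighted to the same UMIs over these bins, Temra cells were 37.0% of CD8 cells in the Cyp51-KO group and 50.6% in the sg-Ctrl group (log2 ratio -0.45). Since the clusters differ in UMIs and each CD8 cluster had fewer UMIs in Cyp51-KO tumors, cells of equal UMIs hold different ranks within their groups. Neither the share as counted nor the share at equal UMIs can therefore be read as the composition at equal sampling of mRNA, and the direction of the Temra share depended on this choice.

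**Figure D5:**
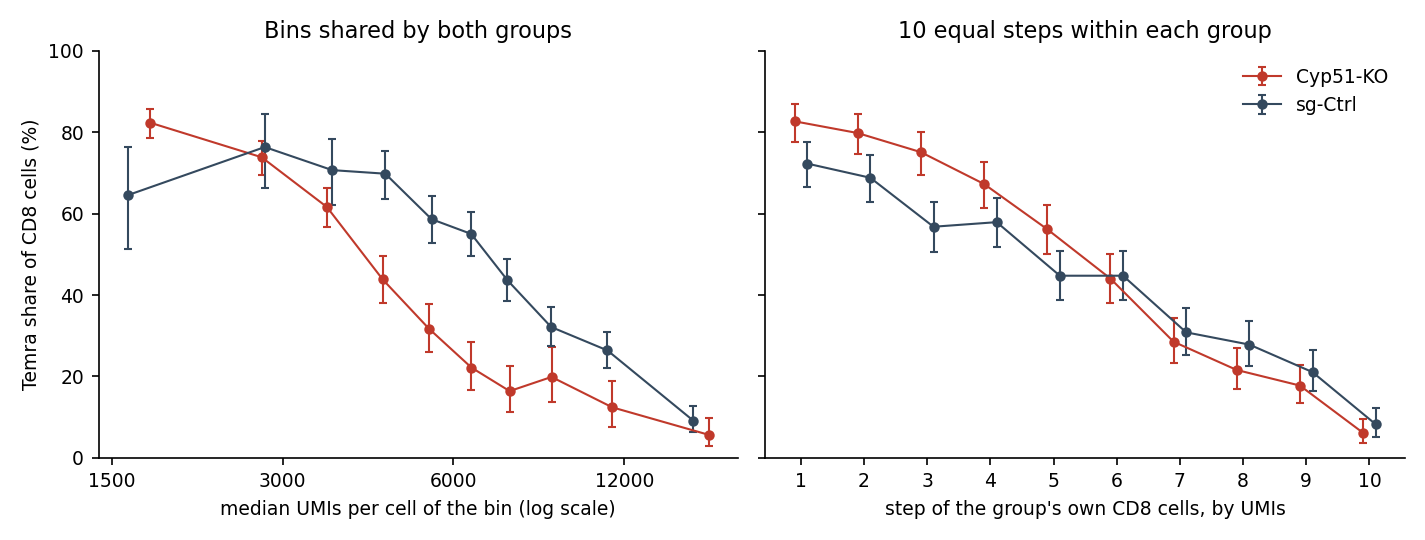
Temra cells as a percentage of CD8 cells in 10 bins of UMIs common to both groups, against the median UMIs of the bin (log scale, left), and in 10 equal steps of each group's own CD8 cells ordered by UMIs (right). Bars are exact 95% binomial intervals. In common bins the Cyp51-KO share is higher only in the lowest bin (82.4% against 64.5%), while over the steps it runs from 82.7% to 6.14% and the sg-Ctrl share from 72.3% to 8.24%.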

How the data were processed

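Cells of orthotopic CT26 tumors were measured by 5' droplet single-cell RNA sequencing. According to the methods and the submitters' processing notes, the authors used Cell Ranger 7.0 (GRCm38), R 4.2.0 and Seurat 4.2.0, filtered cells by genes, UMIs and mitochondrial percentage, removed small scattered clusters of the sg-Ctrl group, ran SCTransform, clustered and named the cells. The deposited table gives raw UMI counts per cell, genes per cell, the mitochondrial percent, and SCTransform sums, used as a score of corrected depth. The sources used here do not give the treatment of doublets. No doublet caller was run.

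Temra cells were taken by cluster name and groups by each cell's group name. Intervals were Clopper-Pearson for shares and exact order-statistic for medians, at 95%. Cluster names, members and comparisons were chosen with earlier results of these data known. Pairs within 1%, weighting over 5 and 20 bins, and mitochondrial percent by bin were added after the data were seen. No gene was named by its values, and marker names served as background. Python 3.11.15, pandas 2.3.3, NumPy 2.4.6, SciPy 1.17.1 and Matplotlib 3.10.9 were used.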

Additional observations from a re-analysis of the deposited data

How the results depend on the processing

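Of 28 alternatives, 22 kept the direction of their result and stayed within its range over cells. The exceptions concern the Temra share of CD8 cells (log2 ratio 0.15). It was 0.0048 over lymphocytes, -0.10 over immune cells and -0.34 over all cells. Weighted to the same UMIs it was -0.45 over 10 bins, -0.45 over 5 bins and -0.46 over 20 bins. The cause was not tested. It stayed positive with a UMI minimum of 1000 and a mitochondrial maximum of 2.5% (0.13) and without the 5% of CD8 cells with the most UMIs (0.15). No paired analysis was possible because cells are tied to a group and not to a library. For the same reason leaving out each library and an exact permutation test over libraries were not run. Cell numbers, from 23 to 225 per bin for the genes at equal UMIs, limit precision.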
